A study of Mus musculus with 6 samples.

Results

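KEOPS is the protein complex that writes t6A, a bulky threonine-derived mark on the adenosine beside the anticodon of tRNAs, and the genes described here are its subunits and the enzymes that work before, beside or after it. The 8 genes were picked by symbol from a table of 55487 genes: 4 KEOPS subunits (Osgep, Tprkb, Trp53rk and Lage3) and 4 partners (Yrdc, Osgepl1, Cdkal1 and Cdk5rap1). The table listed 7 of the 8 under these symbols. Trp53rk was listed as 2 near-identical copies, Trp53rka and Trp53rkb, so that 9 rows were read, and all 9 passed the filter on low counts that left 12669 genes for testing.

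Messenger RNA was sequenced from B16F10, a mouse melanoma cell line grown in culture and labelled as wild type, after infection with an shRNA. The shCtr group carried a scramble shRNA (n = 3) and the shOSGEP group carried 1 hairpin against Osgep, labelled OSGEP#2 (n = 3), with RNA taken from independent infections. The groups share the cell line, the medium and the infection, and a second hairpin was not analysed here. The comparison asks what became of the rest of the t6A machinery at the RNA level when its catalytic subunit was depleted. Protein and t6A itself were not measured in these libraries.

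In the cytosol, YRDC joins threonine, bicarbonate and ATP into an activated intermediate, and OSGEP, the catalytic subunit of KEOPS, transfers the threonylcarbamoyl group to tRNAs that read codons starting with A (ANN codons). The atypical kinase TP53RK carries the ATPase activity of the complex, TPRKB binds TP53RK, and LAGE3 binds OSGEP. OSGEPL1 makes t6A in mitochondria, CDKAL1 adds a methylthio group to t6A on a lysine tRNA, and CDK5RAP1 adds one to i6A, another mark at the same tRNA position.

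Osgep (ENSMUSG00000006289) lies on the minus strand of chromosome 14 (GRCm38, chr14:50906478-50924893). The 41-base target entry of the hairpin was found whole in 7 of the 8 annotated Osgep transcripts. In Osgep-202, the longest, it occupied bases 601 to 641, inside the coding sequence (bases 116 to 1123), and it spanned the junction of exons 4 and 5 of 11 (chr14:50917485-50917857 with the intron between them). It also matched 1 other annotated gene, the processed pseudogene Gm5503, which had 1 count in shOSGEP replicate 3 and 0 in the other 5 libraries.

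A pair of sequence stretches is shown, of which the second bears on how far the counts can be read. The first is the whole gap between the RefSeq starts of Osgep and of Apex1, its neighbour on the opposite strand (GRCm38.p6, chr14:50924894-50924948, plus strand), shown because any element in these 55 bases lies upstream of both genes. Capitals mark matches to the letters CCAAT of the CCAAT box, to CACGTG of the E-box and to GGGCGG of the GC box, searched on both strands and not overlapping each other.
Osgep-Apex1 gap: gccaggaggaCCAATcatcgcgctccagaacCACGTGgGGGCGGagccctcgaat
Of 32851 RefSeq promoters of 300 bases, 37.4% held CCAAT, 7.15% held CACGTG and 35.7% held GGGCGG. Of the 9 member rows, 2 held CCAAT (Osgep and Tprkb), 1 held CACGTG (Osgep) and 7 held GGGCGG in any of their promoters. The percentages count single promoters and the member counts count genes, so that they are not in the same unit. These matches describe letters and were not tested as binding sites.

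The second is the start of the coding sequences of Trp53rka (chr2:165493243-165493302, minus strand) and Trp53rkb (chr2:166793813-166793872, plus strand), coding bases 1 to 60 in GRCm38, shown because the copies can share reads. Capitals mark the bases that differ.
Trp53rka: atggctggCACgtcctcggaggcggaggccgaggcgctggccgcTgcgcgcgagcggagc
Trp53rkb: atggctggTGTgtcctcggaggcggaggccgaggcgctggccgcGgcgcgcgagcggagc
The 4 differences shown are among 11 in 735 coding bases, which leaves the copies 98.5% identical. The split of reads between them is therefore uncertain, and their sum was also tested. Of the words of 31 bases in the transcripts, 59.2% in Trp53rka and 83.8% in Trp53rkb occurred in no other gene, against 87.3% in Lage3, 88.2% in Osgep and 93.7% to 100% in the other 5 rows.

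The libraries held 18915587 to 29487384 counts. All 7 melanocyte markers (Sox10, Mitf, Tyr, Tyrp1, Dct, Pmel and Mlana) were detected, with a summed level of 17000 to 29600 CPM (counts scaled to a common library size) in shCtr and 3550 to 18100 CPM in shOSGEP, lowest in shOSGEP replicate 2. The leukocyte markers Ptprc and Cd3e were at 0 in every library, and the summed level of 4 leukocyte genes was 1.52 to 3.14 CPM. Endothelial genes summed to at most 0.31 CPM, epithelial genes to at most 0.0425 CPM and fibroblast genes to 0.639 to 4.07 CPM. shCtr replicate 2 stood apart from its group: its log2 CPM correlated with shCtr replicates 1 and 3 at r = 0.776 and r = 0.857, whereas those 2 libraries correlated at r = 0.966. shOSGEP replicate 2, the library with the lowest Osgep and the highest Tprkb level, also correlated less with shOSGEP replicates 1 and 3 (r = 0.877 and r = 0.915) than those did with each other (r = 0.953; all across the genes tested, which are not independent replicates).

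Osgep, the targeted gene, was lower in every shOSGEP library than in any shCtr library. Its level was 20.6, 58.6 and 21.8 CPM in shCtr replicates 1, 2 and 3, and 4.28, 0.542 and 5.52 CPM in shOSGEP replicates 1, 2 and 3. This is the direction of the labels, and replicate 2 was the extreme of both groups, the highest shCtr and the lowest shOSGEP library. Behind these values were 485, 1193 and 473 counts in shCtr and 92, 14 and 130 counts in shOSGEP. The group means were 33.7 ± 21.6 CPM and 3.45 ± 2.59 CPM (SD, n = 3 each), and the ratio of the means was 0.102.

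The level of Osgep against the same-numbered control differed between replicate numbers. Osgep in shOSGEP was at 20.8% of the same-numbered shCtr library in replicate 1, 0.925% in replicate 2 and 25.3% in replicate 3. The replicate 2 share divides by the highest shCtr library, at 58.6 CPM against 20.6 and 21.8 CPM, so it depends on both libraries. Replicates 1 and 3 were close to each other, and replicate 2 was far below both. The same library, shOSGEP replicate 2, had the lowest melanocyte marker sum, and its part in the Osgep value was not tested. With bulk RNA, fewer cells that carry Osgep mRNA and less Osgep mRNA per cell cannot be told apart.

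In edgeR's quasi-likelihood test the Log2FC of Osgep, shOSGEP against shCtr, was -3.29 (SE 0.876, 95% interval -5.30 to -1.28, unadjusted p = 0.00524, Benjamini-Hochberg adjusted p = 1.00 over 12669 genes). It was the 4th lowest Log2FC of all genes tested and ranked 24th by p. No gene passed an adjusted p of 0.05 in edgeR (0%), while 256 genes had an unadjusted p under 0.05. DESeq2 gave 17 genes with an adjusted p under 0.05, and Osgep was the 1 lower gene among them (0.00612% of 16343 genes), at Log2FC -3.31 and adjusted p = 0.0340. Over the alternatives run, the adjusted p of Osgep ranged from 1.45e-26 to 1.00, as set out in the closing section. The lowest came from limma-voom with quality weights and a replicate block, which called 1403 genes at an adjusted p of 0.05. By exact permutation of the libraries without pairing, p was 0.1 (two-sided), which is as low as 3 against 3 can go. Without both libraries of replicate 2 the Log2FC was -2.11, without shCtr replicate 2 it was -2.62, and without both libraries of replicate 3 it was -4.05.

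The study's methods set a threshold on the Log2FC (0.5, higher or lower) together with an unadjusted p of 0.05. By it 1 of the 9 rows was lower in shOSGEP, namely Osgep, where 0.426% of the genes tested were lower and 1.59% were higher. None of the 9 rows was higher. Osgep was also the 1 row whose CPM did not overlap between the groups, a pattern seen for 2.87% of genes in the lower and 3.49% in the higher direction. The other 8 rows divided evenly, with 4 above and 4 below 0 by Log2FC, and their median was -0.01, beside a median of -0.03 over all genes tested.

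**Figure D1:**
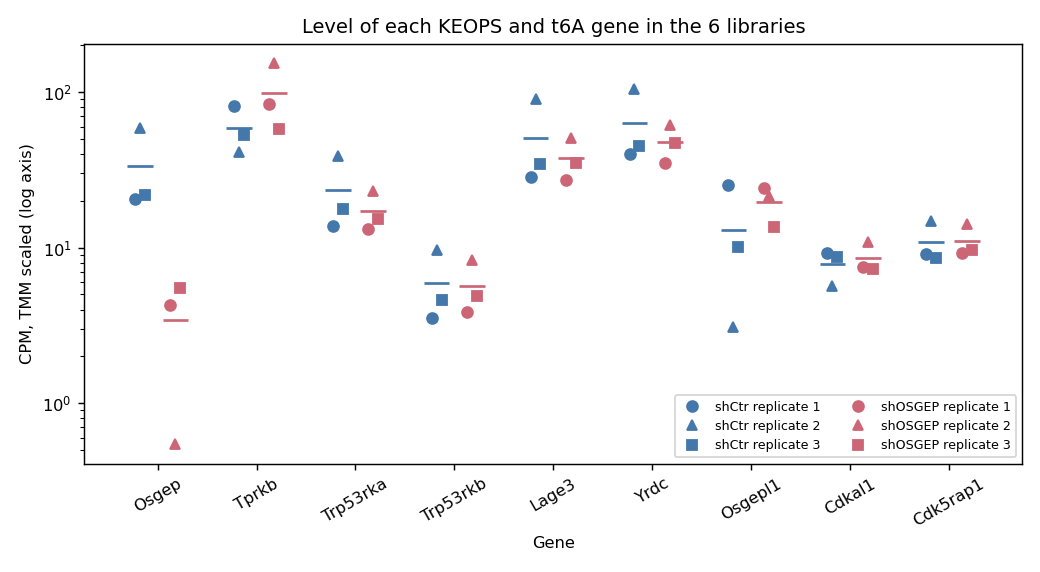
Level of each of the 9 rows in the 6 libraries, in CPM after TMM scaling on a log axis, with a horizontal line at each group mean. Osgep is the row whose groups stand apart, with shOSGEP libraries between 0.542 and 5.52 CPM and shCtr libraries between 20.6 and 58.6 CPM.

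The other KEOPS subunits did not pass the test in either direction. Tprkb, which binds the kinase subunit, was at 81.6, 41.5 and 53.2 CPM in shCtr and 83.9, 154 and 57.6 CPM in shOSGEP. The groups overlapped, and shOSGEP replicate 2 was the 1 library above 83.9 CPM. Its Log2FC was 0.74 (SE 0.50, 95% interval -0.40 to 1.89, edgeR unadjusted p = 0.174). Within replicates 1 and 3 the difference in log2 CPM was 0.04 and 0.12, against 1.89 within replicate 2. Without shOSGEP replicate 2 the Log2FC was 0.28, and without both libraries of replicate 2 it was 0.07.

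The kinase subunit was read from both of its copies. Trp53rka (ENSMUSG00000039725) was at 13.8, 38.7 and 17.7 CPM in shCtr and 13.2, 23.0 and 15.3 CPM in shOSGEP, and Trp53rkb (ENSMUSG00000042854) at 3.53, 9.68 and 4.61 CPM and at 3.86, 8.33 and 4.92 CPM. In both copies replicate 2 was the highest library of its group and the groups overlapped. The Log2FC was -0.45 (SE 0.527, 95% interval -1.66 to 0.76) for Trp53rka and -0.06 (SE 0.583, 95% interval -1.39 to 1.28) for Trp53rkb. Summed, the copies gave 29.3 ± 16.7 CPM in shCtr and 22.9 ± 7.49 CPM in shOSGEP (SD, n = 3 each), with a Log2FC of -0.36 (SE 0.524, edgeR unadjusted p = 0.511). Trp53rka held 79.3% to 80.0% of the summed level in the shCtr libraries and 73.4% to 77.3% in the shOSGEP libraries, a split that rests on the authors' assignment of shared reads.

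Lage3, the subunit that binds OSGEP, was at 28.6, 89.9 and 34.4 CPM in shCtr and 27.4, 50.6 and 35 CPM in shOSGEP. Its groups overlapped, with replicate 2 the highest library in each. The Log2FC was -0.44 (SE 0.547, 95% interval -1.69 to 0.82, edgeR unadjusted p = 0.448), and without shCtr replicate 2 it was 0.26.

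Gon7, the KEOPS subunit outside the 8 chosen genes, which binds LAGE3, was at 9.39, 7.87 and 8.44 CPM in shCtr and 6.89, 7.79 and 7.55 CPM in shOSGEP. Its shOSGEP values lay just below its shCtr values without overlap (7.79 CPM at the highest and 7.87 CPM at the lowest), as for 2.87% of all genes tested. The Log2FC was -0.21 (SE 0.424, edgeR unadjusted p = 0.635) and did not pass the test.

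Set against its complex, Osgep stood lower in every shOSGEP library. The log2 CPM of Osgep minus the mean log2 CPM of Tprkb, Trp53rk (both copies summed) and Lage3 was -0.73, 0.05 and -0.66 in shCtr and -2.96, -6.63 and -2.62 in shOSGEP. The group means were -0.45 ± 0.433 and -4.07 ± 2.22 (SD, n = 3 each), a difference of -3.63 (exact permutation test without pairing, two-sided, p = 0.1, the smallest possible). With the replicate number as a block, the permutation p was 0.25. Without both libraries of replicate 2 the difference was -2.10. As a share of the summed level per length of the KEOPS subunits, Gon7 included, Osgep made up 8.83%, 13.3% and 9.52% in shCtr and 2.07%, 0.154% and 2.62% in shOSGEP.

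**Figure D2:**
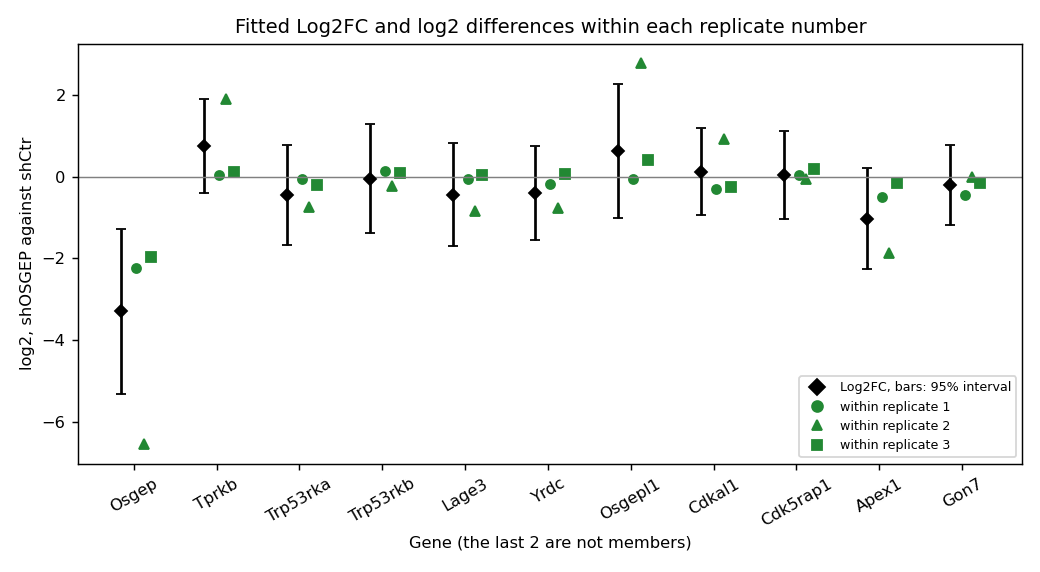
Log2FC from edgeR with its 95% interval (black) and the log2 difference between shOSGEP and shCtr within each replicate number (green), for the 9 rows, Apex1 and Gon7. The interval of Osgep, -5.30 to -1.28, is the one that leaves out 0, and for Tprkb and Osgepl1 the within-replicate 2 values of 1.89 and 2.77 stand far above those of replicates 1 and 3.

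Of the partners, Yrdc, which supplies the activated threonylcarbamoyl group, was at 40.1, 105 and 45.0 CPM in shCtr and 35.2, 61.8 and 46.8 CPM in shOSGEP. The groups overlapped and replicate 2 was again the highest library of each. Its Log2FC was -0.40 (SE 0.505, 95% interval -1.56 to 0.75, edgeR unadjusted p = 0.446), and 0.17 without shCtr replicate 2.

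Osgepl1, the mitochondrial counterpart of Osgep, varied most among the control libraries. Its shCtr values were 25.4, 3.10 and 10.1 CPM, an 8.20-fold range, and its shOSGEP values 24.2, 21.6 and 13.5 CPM. The low library was shCtr replicate 2, with 63 counts, and the groups overlapped. The Log2FC was 0.62 (SE 0.717, 95% interval -1.02 to 2.26, edgeR unadjusted p = 0.412). Within replicate 2 the log2 difference was 2.77, against -0.07 and 0.41 within replicates 1 and 3. Without shCtr replicate 2 the Log2FC was 0.15, and without shCtr replicate 1 it was 1.58.

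Cdkal1, which turns t6A into its methylthio form, was at 9.22, 5.65 and 8.72 CPM in shCtr and 7.49, 10.8 and 7.30 CPM in shOSGEP. Its groups overlapped. The Log2FC was 0.12 (SE 0.462, 95% interval -0.94 to 1.18), above 0 in replicate 2 alone: within replicates 1, 2 and 3 the log2 difference was -0.30, 0.92 and -0.25. Without both libraries of replicate 2 the Log2FC was -0.28.

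Cdk5rap1, the methylthiotransferase of i6A, had the smallest absolute Log2FC of the 9 rows. The shCtr libraries had 9.05, 14.9 and 8.58 CPM and the shOSGEP libraries 9.30, 14.2 and 9.72 CPM, and the same-numbered libraries lay close together. The Log2FC was 0.03 (SE 0.465, 95% interval -1.04 to 1.10, edgeR unadjusted p = 0.950). For the rows other than Osgep, the 95% intervals reached at least 0.75 and at most 2.26 on the high side, and at least -0.40 and at most -1.69 on the low side. Shifts inside a gene's own interval are compatible with these libraries in this fit, which did not use pairing. With the replicate number as a block, the SE was lower in each of these rows, from 0.296 for Yrdc to 0.643 for Osgepl1. For Osgep it was higher with the block, at 1.06 against 0.876.

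The 9 further enzymes that act on the same tRNA position (Trmo, which methylates t6A, Trit1, which makes i6A, Trmt5, Tyw1, Trmt12, Tyw3, Lcmt2 and Tyw5 of the methylguanosine and wybutosine route, and Adat1, a deaminase) were all tested. None passed either threshold and none had groups that did not overlap. By Log2FC 3 lay above and 6 below 0, with a median of -0.06 and a range of -0.39 for Trmo to 0.61 for Tyw5. Tyw5 had the same odd library as Osgepl1, at 1.18 CPM in shCtr replicate 2, where shCtr replicates 1 and 3 had 12.8 and 6.09 CPM.

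The distance of shCtr replicate 2 from its group differed between the rows. Its log2 CPM lay above the mean of shCtr replicates 1 and 3 by 1.46 for Osgep, 1.52 for Lage3, 1.31 for Trp53rka and Yrdc, 1.25 for Trp53rkb and 0.76 for Cdk5rap1. It lay below that mean by a difference of -0.67 for Tprkb, -0.66 for Cdkal1 and -2.34 for Osgepl1. The 3 rows below 0 had transcript GC contents of 46.4%, 43.7% and 39.3%, and the 6 rows above 0 had 45.0% to 55.4%. Across the 9 rows the difference and GC content correlated at r = 0.769 (Spearman's rho 0.427), and across 12658 tested genes at r = 0.706 (rho 0.708). These are descriptions over genes of the same 3 libraries, and the part of GC content in the members' values was not tested.

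**Figure D3:**
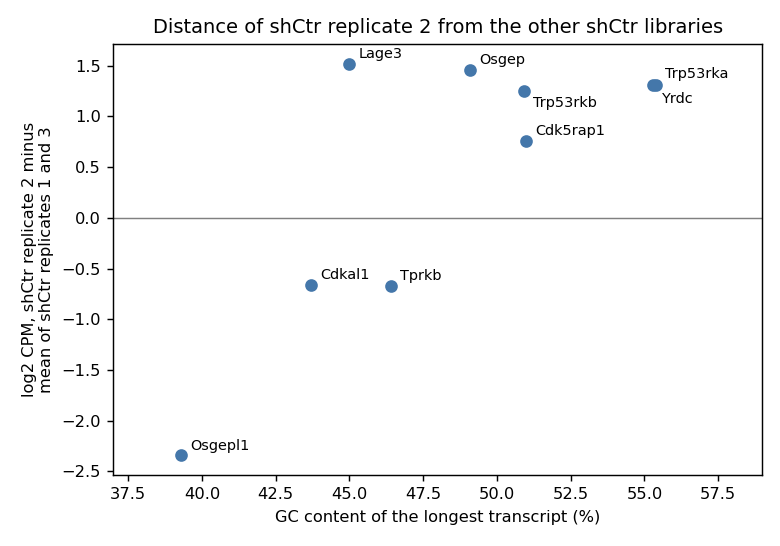
Difference in log2 CPM between shCtr replicate 2 and the mean of shCtr replicates 1 and 3 (vertical axis) against the GC content of the longest transcript (horizontal axis) for the 9 rows. Osgepl1, with the lowest GC content at 39.3%, has the lowest difference at -2.34, while the 4 rows from 49.1% upwards other than Cdk5rap1 lie between 1.25 and 1.46.

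Levels were compared between genes per length, as CPM per kilobase of annotated exons. In shCtr the order was Yrdc at 32.0 ± 18.3, Lage3 at 25.2 ± 16.7, Tprkb at 11 ± 3.85 and Trp53rka at 11 ± 6.34, Osgep at 6.83 ± 4.38, Cdk5rap1 at 3.16 ± 1.03, Osgepl1 at 2.09 ± 1.86, Trp53rkb at 1.03 ± 0.571 and Cdkal1 at 0.614 ± 0.151 (SD, n = 3). Yrdc lay above Lage3 and Lage3 above Trp53rka in 6 of 6 libraries, although the ranges of these neighbours overlapped. Every pair of neighbours in this order overlapped across the shCtr libraries, except that Gon7, at 6.04 ± 0.543 between Osgep and Cdk5rap1, did not overlap Cdk5rap1. In shOSGEP, Osgep was at 0.699 ± 0.525, between Trp53rkb at 0.991 ± 0.406 and Cdkal1 at 0.666 ± 0.153. Divided by the longest transcript instead, Tprkb stood at 26.4 ± 9.28, above Lage3 at 25.5 ± 16.9; its exons together are 5355 bases long and its longest transcript is 2222.

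**Figure D4:**
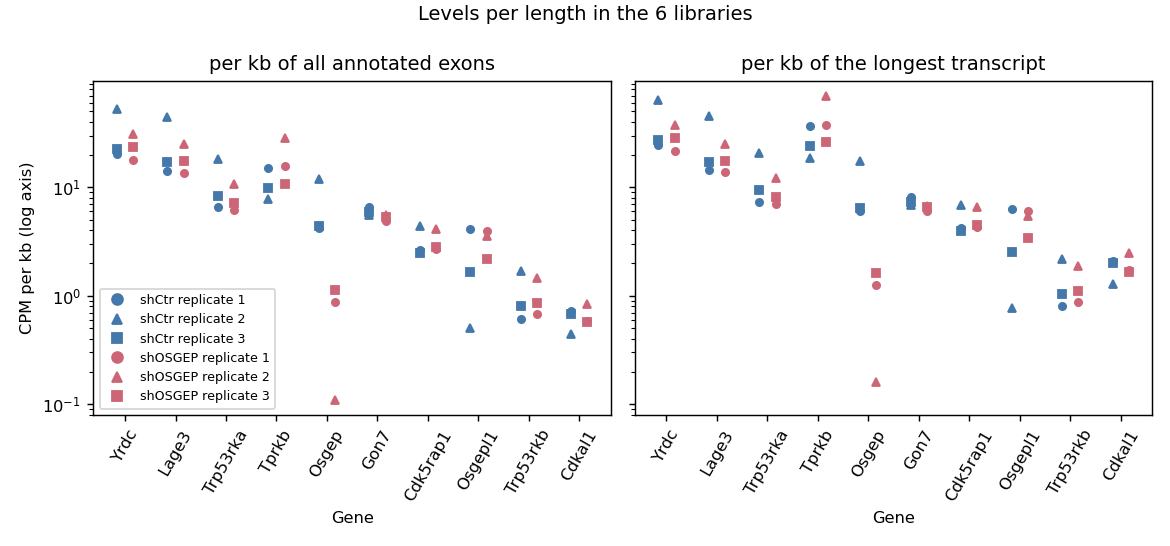
Level per kilobase (log axis) of the 9 rows and Gon7 in the 6 libraries, divided by all annotated exons (left) or by the longest transcript (right). Yrdc is highest on the left at a shCtr mean of 32.0, and Osgep leaves the middle of the order in shCtr (6.83) for a place near the bottom in shOSGEP (0.699).

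Codons starting with A, those that t6A tRNAs read, took up 26.3% of the Osgep coding sequence. Across 21522 genes the median share was 27.7%, with quartiles of 24.1% and 30.9%. Tprkb stood above the upper quartile at 34.3%, and Trp53rka at 19.3%, Trp53rkb at 18.9%, Lage3 at 23.6% and Yrdc at 17.5% stood below the lower one. Osgepl1, Cdkal1 at 29.2% and Cdk5rap1 at 29.3% lay between the quartiles. The shares come from the annotated sequences and are independent of the libraries.

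Apex1, a DNA repair endonuclease gene, starts 75 bases from Osgep in GENCODE and runs the opposite way (chr14:50924968-50927139, plus strand). Its shCtr libraries had 89.9, 299 and 112 CPM and its shOSGEP libraries 64.1, 81.4 and 100.0 CPM. The groups overlapped, through shOSGEP replicate 3, and shOSGEP was the lower library within all 3 replicate numbers, at 71.3%, 27.3% and 89.4% of shCtr. The Log2FC was -1.03 (SE 0.537, 95% interval -2.26 to 0.21, edgeR unadjusted p = 0.0913, adjusted p = 1.00) and did not pass the test, and without shCtr replicate 2 it was -0.30. Limma-voom with quality weights per library and the replicate number as a block gave a Log2FC of -0.42 for Apex1 with an adjusted p of 0.0348, and -2.23 for Osgep with an adjusted p of 1.45e-26. In that fit 4.34% of all genes were called lower, so that a call for Apex1 is not rare there. Its variances are moderated across all genes tested, as are those of the edgeR fit. The p-values of both therefore do not rest on the replicates of 1 gene alone.

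The remaining neighbours were read for shared bases. 1110065P20Rik starts 517 bases from Yrdc on the opposite strand and overlaps it by 518 bases. The shCtr libraries had 12.9, 60.1 and 13.9 CPM of it and the shOSGEP libraries 10.9, 28.9 and 16.8 CPM (Log2FC -0.62, SE 0.705). Like Yrdc it was highest in replicate 2 of each group, and its groups overlapped. Nat8f1 overlaps Tprkb by 3823 bases on the opposite strand and was at 3.74 to 15.5 CPM in shCtr and 4.09 to 7.40 CPM in shOSGEP (Log2FC -0.62, SE 0.654). The library kit does not mark strand, so that reads from the shared bases of these pairs cannot be told apart. The other overlapping genes had at most a mean of 0.0620 CPM in either group.

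The 5 tested genes whose log2 CPM followed Osgep most closely over the 6 libraries were Srd5a1 (Pearson's r = 0.996), Fabp5 (0.995), Twnk (0.99), Smim14 (0.99) and Tmie (0.989). They were chosen for this likeness, and the points are the same 6 libraries in pairs of replicate numbers, so that the values are a description and no test. Over the 4 libraries of replicates 1 and 3 the same genes had r between 0.938 and 0.993. Srd5a1 was at 17.7, 25.9 and 16.3 CPM in shCtr and 10.2, 5.15 and 10.1 CPM in shOSGEP. Among the members none followed Osgep: r was 0.269 for Yrdc, 0.265 for Trp53rka, 0.228 for Lage3, -0.0796 for Trp53rkb, -0.163 for Cdk5rap1, -0.647 for Cdkal1, -0.650 for Osgepl1 and -0.875 for Tprkb.

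**Figure D5:**
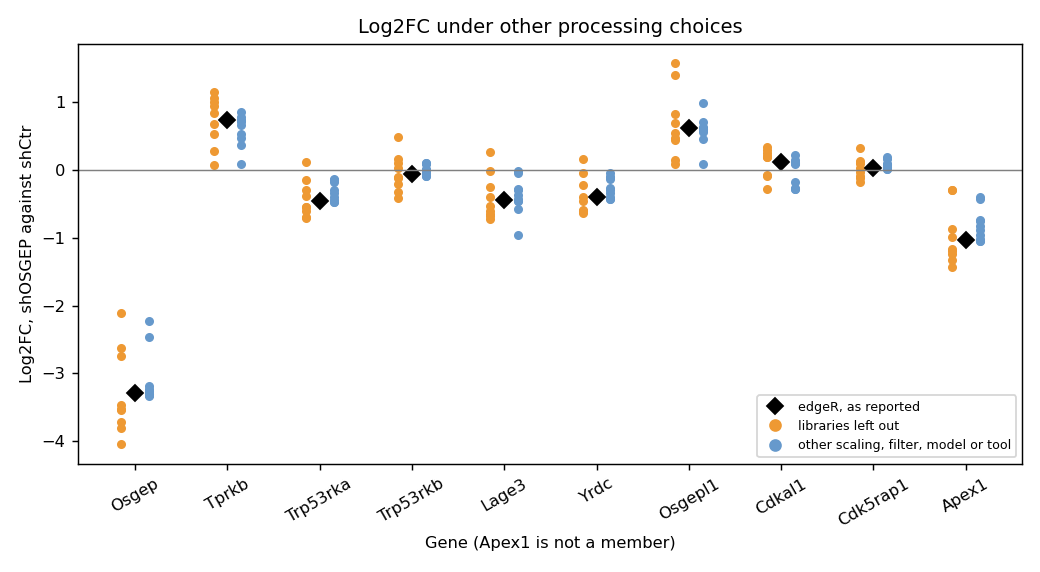
Log2FC of the 9 rows and Apex1 as reported (black), with libraries left out (orange) and with another scaling, filter, model or tool (blue). Osgep stays between -4.05 and -2.11 throughout, while Trp53rka, Trp53rkb, Lage3, Yrdc, Cdkal1 and Cdk5rap1 lie on both sides of 0.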

How the data were processed

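RNA of 6 libraries (3 shCtr, 3 shOSGEP) was poly(A)-selected and prepared with an unstranded TruSeq kit. Per the study's methods and the submitters' processing notes, the authors trimmed reads, aligned them to GRCm38 with STAR 2.6.1d and quantified genes with Salmon 1.4.0; the annotation release is not given in the sources used here. The deposited values are estimated counts per gene, written as whole numbers and used as such. Reads shared between genes were divided by the authors' quantification, which can move counts between near-identical genes.

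Counts were filtered with filterByExpr (minimum count 10, minimum total 15), scaled by TMM and tested with edgeR 4.0.16 (quasi-likelihood, R 4.3.3), with Benjamini-Hochberg adjustment over 12669 genes. CPM used the TMM library sizes, and log2 CPM a prior count of 2. Intervals are 95% intervals from the fit. A count of 3 corresponded to 0.116 to 0.147 CPM, which covers counting error only. The fit was tested on simulated data. The simulated counts varied less between libraries than these and held no odd library, so that test does not show how the fit performs here. Alternatives were DESeq2 1.42.0, limma 3.58.1, other scalings and filters, splines of GC content and length (5 degrees of freedom), a replicate block and left-out libraries. Single genes were tested by exact permutation (scipy 1.17.1). Neither these permutations nor the main fit used the replicate numbers as pairs.

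Replicate numbers were taken as pairing, since the deviations of same-numbered libraries from their group means correlated at 0.811, 0.557 and 0.196, although shCtr replicate 3 correlated more with shOSGEP replicate 1 (0.491) than with shOSGEP replicate 3, and shCtr replicate 2 with shOSGEP replicate 3 at 0.138. In log2 CPM itself, same-numbered libraries correlated at r = 0.982, 0.87 and 0.986 in replicates 1, 2 and 3. There replicate 2 was the less certain pair, as shCtr replicate 2 correlated with shOSGEP replicate 3 at 0.873. The library names share an ending within each replicate number, but which infections were made side by side is not stated. Gene models came from GENCODE M21, promoters from RefSeq (GRCm38.p6). The named genes were the members, the other genes of fixed lists past a threshold, neighbours within 1000 bases or overlapping, and the 5 genes most correlated with Osgep; Gon7, Trmo, Tyw5 and the Srd5a1 levels were added after values were seen. The members and lists were chosen with earlier results of these data known.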

Additional observations from a re-analysis of the deposited data

How the results depend on the processing

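Osgep stayed lower in shOSGEP in all 19 alternatives and was past the study's threshold, the 1 member row to be so, in each. With a replicate block its Log2FC was -3.34 (adjusted p = 0.741), and with the block and GC and length offsets -3.32; neither block changed a call of a member. Its adjusted p passed 0.05 in DESeq2 (Log2FC -3.31) and in limma-voom with weights per library and a replicate block (-2.23), which moved the members called from 0 to 1 in each. Leaving out libraries gave -4.05 to -2.11 for Osgep and -4.46 to -2.10 for Osgep relative to the other KEOPS subunits. Among the member rows, the levels per length in shCtr that moved by more than 1 SD with the longest transcript were those of Tprkb (26.4), Cdkal1 (1.79) and Cdk5rap1 (5.03). Gon7, not a member, also did so, from 6.04 ± 0.543 to 7.43.

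Directions that turned were all of values that passed no test, and the cause was not tested. Without shCtr replicate 2 the Log2FC was 0.12 for Trp53rka, 0.49 for Trp53rkb, 0.26 for Lage3, 0.17 for Yrdc and -0.07 for Cdkal1. Trp53rkb also turned with upper-quartile scaling (0.09), at least 10 counts in every library (0.00), the replicate block (0.00), the block with offsets (0.02), limma-voom with weights (0.10) and with the block (0.11), and without shOSGEP replicate 1 (0.16), shOSGEP replicate 3 (0.03) or replicate 2 of both groups (0.11). Cdkal1 also turned with GC and length offsets (-0.28), with the block added (-0.28), in limma-voom with weights (-0.18) and with the block (-0.27), and without shOSGEP replicate 2 (-0.08) or replicate 2 of both groups (-0.28). Cdk5rap1 turned without shCtr replicate 1 (-0.08), shCtr replicate 3 (-0.11), shOSGEP replicate 2 (-0.17) or replicate 3 of both groups (-0.03). Over all left-out libraries the Log2FC ran from -0.71 to 0.12 for Trp53rka, -0.41 to 0.49 for Trp53rkb, -0.72 to 0.26 for Lage3, -0.64 to 0.17 for Yrdc, -0.28 to 0.34 for Cdkal1 and -0.17 to 0.33 for Cdk5rap1. Tprkb and Osgepl1 stayed above 0 in all 19, but ran from 0.07 to 1.16 and from 0.09 to 1.58 with libraries left out, and both were at 0.09 in limma-voom with the block. GC and length offsets moved Lage3 to -0.96, its lowest value, Trp53rka to -0.14 and Yrdc to -0.10.

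Over all genes, the count past the study's threshold was 256 and went to 599 without the filter, 634 with GC and length offsets (203 lower, 431 higher, against 54 and 202), 825 with the block and offsets, 560 and 1442 in limma-voom without and with the block, 470 in DESeq2 and 67 to 453 with libraries left out. At an adjusted p of 0.05 the counts were 0 in edgeR, 17 in DESeq2, and 3 and 1403 in limma-voom without and with the block. The range among the 3 shCtr libraries was 1.63-fold (Cdkal1) to 8.20-fold (Osgepl1) over the member rows, which limits the precision of each. Summing the Trp53rk copies, the Gon7 addition and the Apex1 fits were chosen after seeing the data.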
